A study of Mus musculus with 6 samples.

Results

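The genes described here are the 33 genes that mark the neutrophil lineage from the promyelocyte to the released cell. They were chosen by symbol from a list of neutrophil granule and maturation genes, 33 of the 55401 gene identifiers counted, and all 33 were found and passed the filter on low counts, which kept 20636 genes. Bulk RNA from tibias of 8-week-old male mice was sequenced, with 3 libraries from *Osterix-Cre; Atrxf/y* mice (Atrx-cKO) and 3 from *Atrxf/y* mice (control). All mice carried the floxed *Atrx* allele, and the Cre transgene was present in Atrx-cKO and in no control, so transgene and deletion cannot be told apart in these libraries. *Osterix-Cre* is a Tet-off transgene that acts in preosteoblasts and was held silent with doxycycline from conception until 3 weeks of age. Neutrophils arise from hematopoietic stem cells and not from preosteoblasts, and the cells from which the reads of these genes came were not measured. *Atrx* itself, counted over the whole gene, was at 163 ± 9.53 CPM (read counts scaled to library size with TMM factors; SD, n = 3) in Atrx-cKO and 169 ± 4.98 CPM (SD, n = 3) in control. This count spans every exon and every cell of the bone and does not check the deletion.

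Neutrophils are made in the bone marrow in a fixed sequence, and each step loads a different set of proteins into granules. Promyelocytes fill the primary (azurophilic) granules with serine proteases and myeloperoxidase. Myelocytes and metamyelocytes then fill the secondary granules with lactoferrin and cathelicidin under C/EBPε, and the last steps add the receptors that let the cell leave the marrow and find microbes. The 33 genes were therefore read in order: 6 primary granule genes, 13 secondary granule and myelocyte genes, 12 genes of the mature cell, and *Lyz2* and *Anxa1*, which other myeloid cells also express.

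Per length, the most abundant gene of each stage in control tibias was *Elane* (neutrophil elastase) at 1158 ± 227 TPM (counts scaled to exon length and library size; SD, n = 3), *Ngp* (neutrophilic granule protein) at 5987 ± 1310 TPM (SD, n = 3) and *S100a9* (a subunit of calprotectin) at 12291 ± 3265 TPM (SD, n = 3). The 250 bases before their RefSeq start sites are shown to place the letters of the 2 factor families that are known to drive this program, C/EBP (TTNNGNAA) and PU.1 (GAGGAA), either strand, in capitals. The regions on GRCm38.p6 are chr10:79886062-79886311 on the plus strand, chr9:110419558-110419807 on the plus strand and chr3:90695722-90695971 on the minus strand.
Elane: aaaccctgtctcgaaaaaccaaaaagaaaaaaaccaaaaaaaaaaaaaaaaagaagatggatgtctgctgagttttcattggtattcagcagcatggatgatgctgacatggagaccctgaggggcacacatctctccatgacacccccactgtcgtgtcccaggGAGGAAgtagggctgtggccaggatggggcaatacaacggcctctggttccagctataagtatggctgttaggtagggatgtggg
Ngp: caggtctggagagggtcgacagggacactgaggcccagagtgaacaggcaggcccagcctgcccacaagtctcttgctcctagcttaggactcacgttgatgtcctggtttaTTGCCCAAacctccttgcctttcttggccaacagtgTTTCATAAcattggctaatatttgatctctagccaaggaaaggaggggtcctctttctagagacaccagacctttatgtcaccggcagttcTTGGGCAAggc
S100a9: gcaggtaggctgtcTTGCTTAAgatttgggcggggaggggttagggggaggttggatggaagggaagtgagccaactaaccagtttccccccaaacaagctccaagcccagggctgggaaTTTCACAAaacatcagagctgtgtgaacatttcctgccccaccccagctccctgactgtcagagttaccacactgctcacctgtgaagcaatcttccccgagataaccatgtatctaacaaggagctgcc

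The *Elane* stretch held 1 GAGGAA and 0 TTNNGNAA, the *Ngp* stretch held 3 TTNNGNAA and 0 GAGGAA, and the *S100a9* stretch held 2 TTNNGNAA and 0 GAGGAA. Over windows of 300 bases, 250 before and 50 after the start, 31 of the 33 genes had an entry, with 33 windows because *Gfi1* and *Ly6g* had more than one. TTNNGNAA was found in 66.7% of these windows and in 40.7% of all 32851 promoter windows, and GAGGAA in 57.6% and 28.3%. By stage, TTNNGNAA was in 2 of 7 primary, 10 of 12 secondary and 8 of 12 mature windows, and GAGGAA in 5 of 7, 7 of 12 and 6 of 12. The *Ly6g* windows, counted separately among the secondary ones, overlap (chr15:75155011-75155310 and chr15:75155079-75155378), and each held both motifs. A match of letters is a description of the window and no evidence of binding.

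Reads counted on genes ranged from 55178546 to 58029939 in Atrx-cKO and from 50977777 to 70571655 in control. The 33 genes took 1.83%, 1.44% and 1.36% of these counts in Atrx-cKO replicates 1, 2 and 3, and 1.63%, 1.29% and 1.02% in control replicates 1, 2 and 3. A count of 3 was worth 0.0425 to 0.0588 CPM, and the least abundant member, *Il1r2*, was at 4.45 CPM or more in every library, so counting depth did not limit any of the 33. Within a genotype, no pair of libraries was close enough to be 1 library deposited again (chi-square per degree of freedom 15.8 to 137 against counting noise). The labels do not say that each library came from a separate animal, and p-values measure the spread between these samples.

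One library at each end stood apart before any comparison. Atrx-cKO replicate 1 had the highest CPM in 26 of the 33 genes (78.8%, against 21.8% of all genes tested), and control replicate 3 had the lowest in 27 (81.8%, against 20.6%). Control replicate 3 also held the most skeletal muscle RNA: 10 muscle genes took 1.05% of its counts, against 0.236% in Atrx-cKO replicate 1, 0.120% and 0.0695% in the other Atrx-cKO libraries, and 0.0848% and 0.0821% in the other controls. The part of muscle RNA in the neutrophil values was not tested. In bulk bone, fewer cells of a type and less RNA per cell cannot be told apart.

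**Figure D1:**
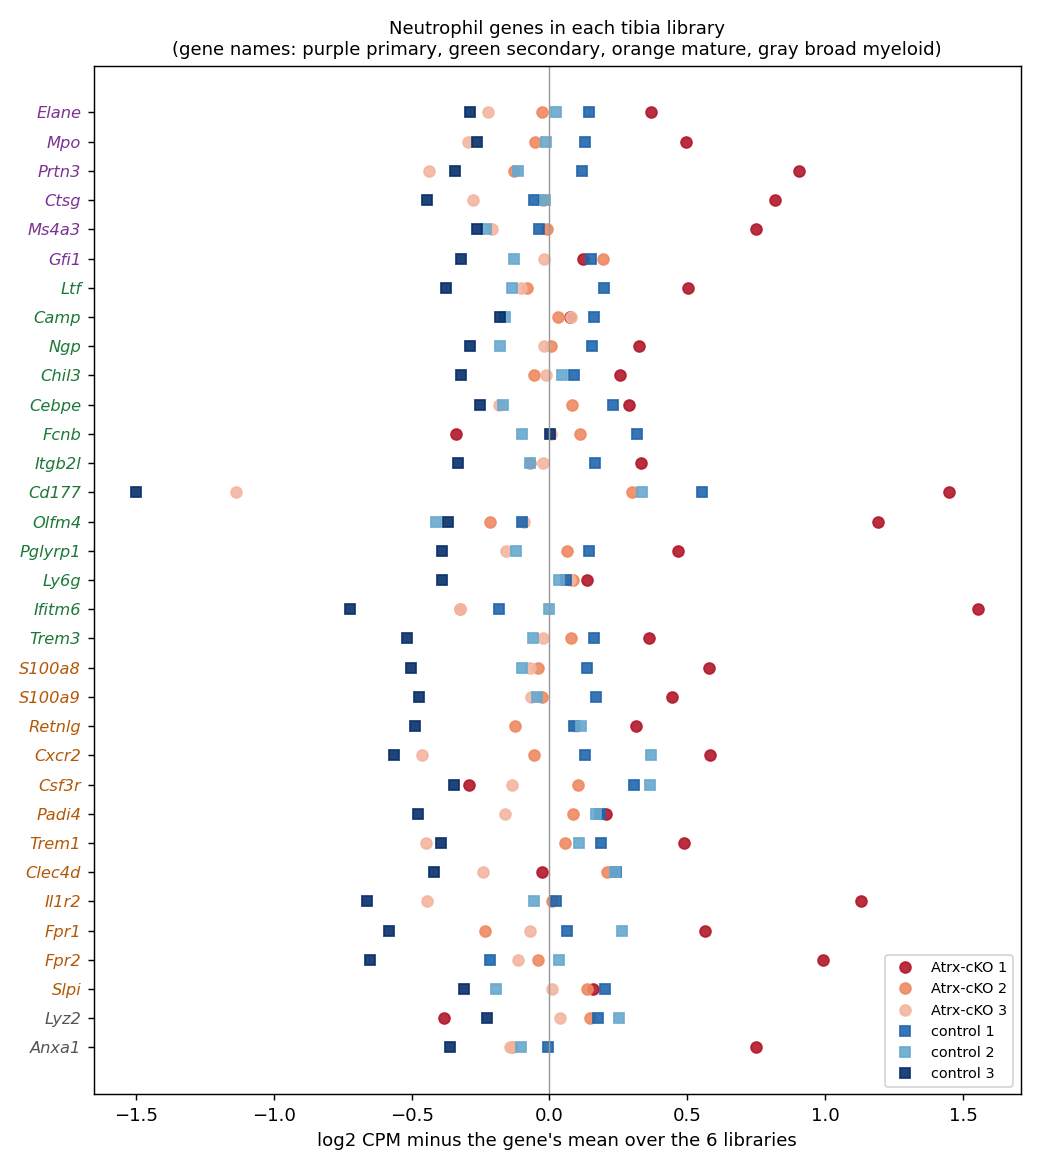
Each row is a gene and each point a library, placed at its log2 CPM minus that gene's mean over the 6 libraries; circles are Atrx-cKO and squares are control. Atrx-cKO replicate 1 lies farthest right in 26 of 33 rows and control replicate 3 farthest left in 27 of 33.

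No member passed the comparison of genotypes. With the study's thresholds (an adjusted p under 0.05 together with at least a 2-fold change, 1 on the log2 scale), the quasi-likelihood test of edgeR, adjusted by Benjamini-Hochberg over all genes, called 0 of 33, where 3 of 20636 genes were called (0.0145%). At an unadjusted p under 0.05, 0 of 33 were higher and 0 lower, beside 1.59% and 2.05% of all genes, and DESeq2 called 0 members, with 0 higher and 0 lower, where it called 23 of 23938 genes (0.0961%) and found 1.55% higher and 2.45% lower. The adjusted p of the 33 genes was between 0.992 and 0.997. The Atrx-cKO libraries lay wholly above the controls in 1 gene (3.03%, beside 4.30% of all genes) and wholly below in 0 (beside 4.01%). All 33 of the 95% intervals included 0, and 26 lay inside -1 to 1, so for those a change of 2-fold either way was outside the interval.

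The fitted log2 fold changes (Atrx-cKO over control) ran from -0.24 for *Csf3r* to 0.87 for *Ifitm6*, and 29 of 33 were above 0, with a median of 0.19 against 0.0050 for all genes tested, of which 51.2% were above 0. Several lists of other blood cells, given below, also had most log2 fold changes above 0. The count and the median of the 33 genes moved with the libraries included. Atrx-cKO replicate 1 and control replicate 3 are the extremes of these genes, so leaving out either tends to lower them by construction. Without Atrx-cKO replicate 1, 19 of 33 were above 0 with a median of 0.010. Without control replicate 3, 22 were above 0 with a median of 0.057. Without both, a pair chosen after seeing these genes' values, 7 were above 0 (*Ms4a3*, *Gfi1*, *Camp*, *Olfm4*, *Ly6g*, *Fpr2* and *Slpi*) with a median of -0.11. By stage, the primary, secondary and mature medians were -0.039, 0.018 and -0.013 without Atrx-cKO replicate 1, and 0.14, 0.079 and -0.030 without control replicate 3. Leaving out a library at the other side raised them, to 0.43, 0.26 and 0.26 without Atrx-cKO replicate 3 and to 0.39, 0.34 and 0.24 without control replicate 1.

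**Figure D2:**
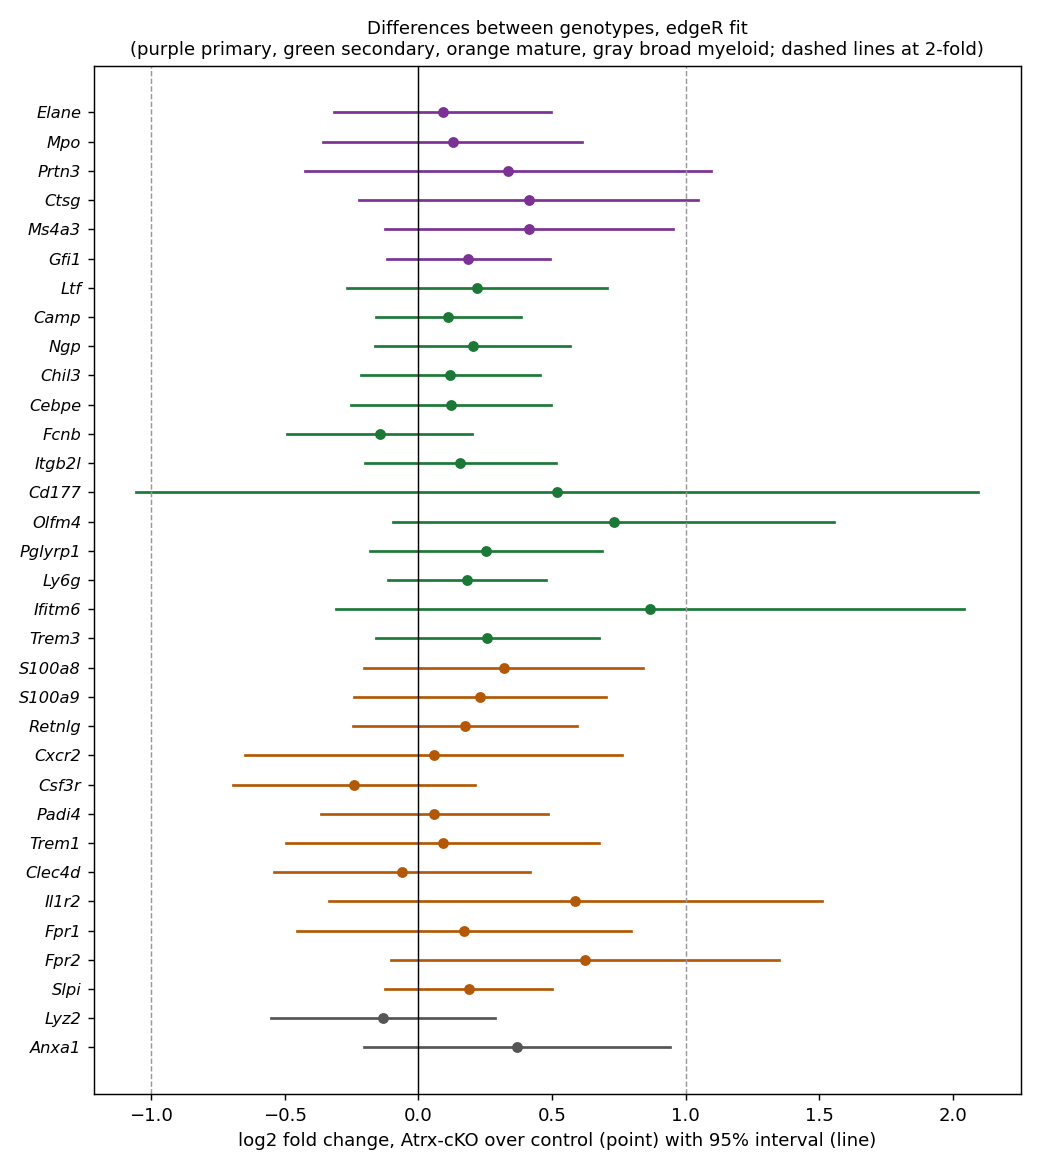
Points are log2 fold changes of Atrx-cKO over control from the edgeR fit of 3 against 3 libraries, and lines are 95% intervals; dashed lines mark a 2-fold change. Every line crosses 0, and 26 of 33 stay between the dashed lines.

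**Figure D3:**
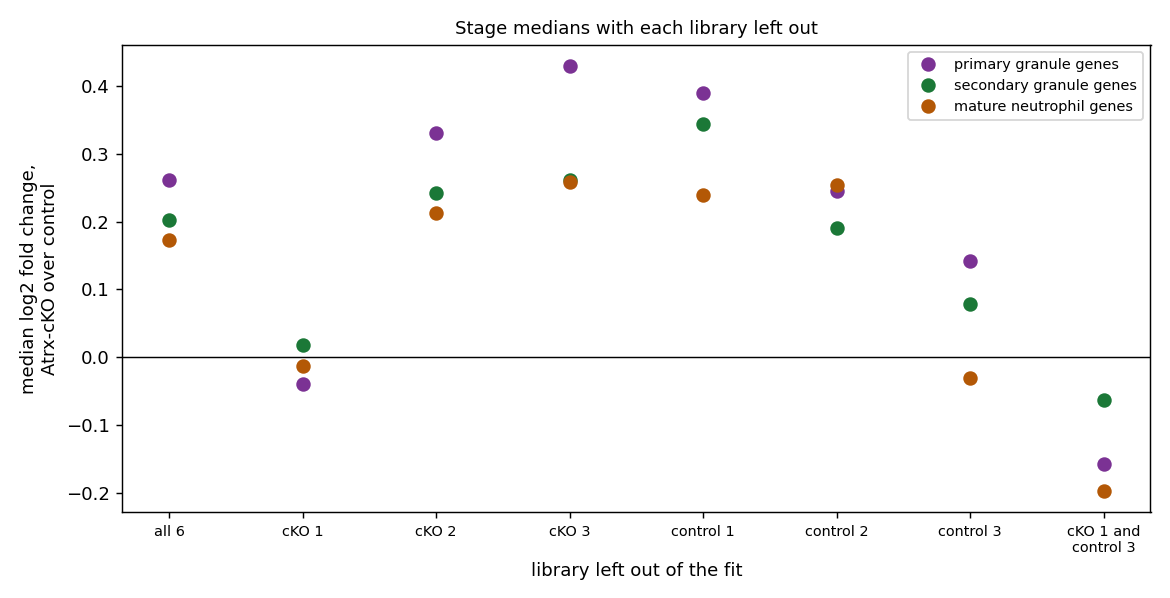
Points are the median log2 fold changes of the 3 stages in the fit of all 6 libraries and in fits that leave out the library named on the horizontal axis. All 3 medians lie above 0 with all libraries and below 0 without both Atrx-cKO replicate 1 and control replicate 3.

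The 6 primary granule genes had a median log2 fold change of 0.26, with 0 of 6 past the test and all 6 point estimates above 0. *Mpo* (ENSMUSG00000009350, chromosome 11 from 87793581 to 87804413), the myeloperoxidase that makes hypochlorous acid, was at 1410, 965 and 815 CPM in Atrx-cKO and 1093, 990 and 834 CPM in control. Its lowest library was an Atrx-cKO one and its highest too, so the groups overlapped, with a log2 fold change of 0.13 (standard error [SE] 0.21, adjusted p = 0.992, edgeR). *Elane* (ENSMUSG00000020125, chromosome 10 from 79886247 to 79888215) was at 446, 339 and 297 CPM in Atrx-cKO and 382, 351 and 283 CPM in control.

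*Prtn3*, the gene of proteinase 3, lies 3.07 kb from *Elane* on the same strand. It was at 653, 319 and 258 CPM in Atrx-cKO and 378, 322 and 274 CPM in control. Here Atrx-cKO replicate 1 was 1.73 times the next library, while the other Atrx-cKO values lay inside or below the control range. *Ctsg* (cathepsin G) and *Ms4a3*, a membrane protein of granulocyte-monocyte progenitors, also had 1 high library, with Atrx-cKO replicate 1 at 1.78 and 1.69 times the next library. *Gfi1*, the repressor that holds progenitors to the granulocyte fate, varied least of the 6, from 25.8 to 36.8 CPM over all libraries.

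The 13 secondary granule and myelocyte genes had a median log2 fold change of 0.20, with 0 of 13 past the test and 12 point estimates above 0. *Ltf*, the iron-binding lactoferrin, was at 1992, 1328 and 1308 CPM in Atrx-cKO and 1613, 1280 and 1083 CPM in control. *Ngp* (ENSMUSG00000032484, chromosome 9 from 110419747 to 110423012) was at 2900, 2322 and 2280 CPM in Atrx-cKO and 2578, 2045 and 1896 CPM in control, a log2 fold change of 0.20 (SE 0.16, 95% interval -0.16 to 0.57). In both genes control replicate 1 exceeded Atrx-cKO replicates 2 and 3.

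*Camp*, which encodes the cathelicidin precursor and lies on chromosome 9 with *Ltf* and *Ngp*, was the steadiest of the 33, from 668 to 848 CPM (a within-group SD of 0.14 on the log2 scale), with its highest value in a control. *Cebpe*, the gene of C/EBPε, was at 52.2, 45.2 and 37.6 CPM in Atrx-cKO and 50.1, 38.0 and 35.9 CPM in control. *Chil3* (Ym1, a chitinase-like protein), *Itgb2l* (an integrin β subunit), *Pglyrp1* (which binds peptidoglycan) and *Trem3* (a receptor of the TREM family) had log2 fold changes between 0.12 and 0.26. The chitinase-like genes are close copies, and reads of *Chil3* may be split between them.

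*Ly6g* (ENSMUSG00000022582), the surface antigen by which mouse neutrophils are commonly sorted, was the 1 gene whose groups did not overlap. It was at 34.5, 33.3 and 33.1 CPM in Atrx-cKO and 32.8, 32.2 and 24.0 CPM in control. The groups were apart by less than 1 CPM, and the log2 fold change was 0.18 (SE 0.13, adjusted p = 0.992, edgeR). *Fcnb*, the ficolin B lectin, had the lower mean in Atrx-cKO, with 73.3, 100 and 93.1 CPM in Atrx-cKO and 115, 86.4 and 92.7 CPM in control. Its lowest library was Atrx-cKO replicate 1, the library that was highest for 11 of the 13 genes of its stage.

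*Ifitm6* (ENSMUSG00000059108, chromosome 7 from 141015699 to 141017924), of the interferon-induced transmembrane family, was at 215, 58.5 and 58.6 CPM in Atrx-cKO and 64.6, 73.1 and 44.4 CPM in control. *Olfm4* (ENSMUSG00000022026, chromosome 14 from 79984081 to 80023139), an olfactomedin found in a subset of neutrophils, was at 77.3, 29.1 and 31.8 CPM in Atrx-cKO and 31.6, 25.4 and 26.2 CPM in control. In each, Atrx-cKO replicate 1 was alone, at 2.94 and 2.43 times the next library, and the other 5 libraries lay between 44.4 and 73.1 CPM for *Ifitm6* and between 25.4 and 31.8 CPM for *Olfm4*. The fold changes were the highest of the 33 at 0.87 (SE 0.50) and 0.73 (SE 0.35, unadjusted p = 0.0748, adjusted p = 0.992, edgeR), and without that library they were -0.054 and 0.13. Part of *Olfm4* shares exonic sequence with *Gm6999* on the same strand.

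*Cd177* (ENSMUSG00000052212), a surface protein that presents proteinase 3, spread over a 7.73-fold range, at 347, 156 and 57.8 CPM in Atrx-cKO and 186, 160 and 44.9 CPM in control. Its within-group SD of 1.21 on the log2 scale lay at the 99.5th percentile of the 10836 genes with a mean of at least 10 CPM. Atrx-cKO replicate 3 and control replicate 3 were both low and Atrx-cKO replicate 1 was high, so each genotype held low and high libraries. The 95% interval of its fold change, -1.06 to 2.09, was the widest of the 33.

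The 12 genes of the mature cell had a median log2 fold change of 0.17, with 0 of 12 past the test and 10 point estimates above 0. *S100a8* and *S100a9*, the subunits of calprotectin, lie 22.6 kb apart on chromosome 3. *S100a9* (ENSMUSG00000056071) was at 2759, 1993 and 1938 CPM in Atrx-cKO and 2282, 1966 and 1461 CPM in control, and *S100a8* at 2198, 1430 and 1400 CPM and 1616, 1374 and 1038 CPM. Both had the same order at the ends, with Atrx-cKO replicate 1 highest, control replicate 1 next and control replicate 3 lowest.

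*Csf3r* (ENSMUSG00000028859, chromosome 4 from 126024550 to 126044440), the receptor of G-CSF, was at 179, 236 and 200 CPM in Atrx-cKO and 271, 283 and 173 CPM in control. Control replicate 3 was the lowest and the other controls were the highest, and the log2 fold change was -0.24 (SE 0.19, 95% interval -0.69 to 0.21, adjusted p = 0.992, edgeR). Without control replicate 3 it was -0.45, with an unadjusted p of 0.0106 and an adjusted p of 0.9999 from the same test. *Cxcr2*, the CXC chemokine receptor that draws neutrophils out of the marrow, was at 120, 77.0 and 58.1 CPM in Atrx-cKO and 87.4, 103 and 54.2 CPM in control, and its log2 fold change was 0.057 with all libraries and -0.50 without Atrx-cKO replicate 1 and control replicate 3.

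The formyl peptide receptors *Fpr1* and *Fpr2*, 3.88 kb apart on chromosome 17, differed in shape. *Fpr2* was at 63.3, 31.0 and 29.4 CPM in Atrx-cKO and 27.4, 32.6 and 20.3 CPM in control, and *Fpr1* at 24.2, 13.9 and 15.6 CPM and 17.1, 19.6 and 10.9 CPM. Atrx-cKO replicate 1 was 1.94 times the next library for *Fpr2* and 1.23 times for *Fpr1*. Exons of *Fpr2* overlap those of *Fpr3* on the same strand. *Il1r2*, the decoy receptor of interleukin 1, had the same lone high library at 15.4 CPM, against 4.45 to 7.15 CPM in the other 5.

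Of the remaining mature genes, *Retnlg* (a resistin-like secreted protein), *Padi4* (the deiminase that citrullinates histones), *Trem1* (an activating receptor), *Clec4d* (a C-type lectin) and *Slpi* (an inhibitor of elastase and cathepsin G) had log2 fold changes from -0.06 to 0.19. *Clec4d* had its highest library among the controls, as did *Slpi*. *Lyz2* (lysozyme), shared with monocytes and macrophages, was at 1219, 1760 and 1632 CPM in Atrx-cKO and 1797, 1894 and 1360 CPM in control, and Atrx-cKO replicate 1 was its lowest library. *Anxa1* (annexin A1) had Atrx-cKO replicate 1 highest, at 583 CPM against 271 to 346 CPM in the others.

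The balance between stages was compared within each library, where the scaling of the library has no part. The mean log2 level (of CPM + 0.5) of the mature genes minus that of the primary genes was -1.45, -1.28 and -1.22 in Atrx-cKO and -1.24, -1.11 and -1.45 in control. The group means differed by -0.048, less than the SD within either group (0.12 and 0.17). Secondary minus primary differed by 0.022 (SD 0.083 and 0.094) and mature minus secondary by -0.070 (SD 0.046 and 0.13). These differences moved with single libraries. Mature minus primary was -0.14 without control replicate 3, 0.031 without control replicate 2 and 0.018 without Atrx-cKO replicate 1. With each library left out in turn, secondary minus primary ran from -0.028 (without control replicate 3) to 0.066 (without control replicate 1), and mature minus secondary from -0.11 (without control replicate 3) to 0.0023 (without control replicate 2). Each stage alone was higher in Atrx-cKO by 0.22, 0.24 and 0.17 on this scale, beside SDs within groups of 0.20 to 0.42. A reference of 8 pan-leukocyte genes was itself higher in Atrx-cKO by 0.12 (SD 0.18 in Atrx-cKO and 0.26 in control). Of these 8 genes, 6 were highest in Atrx-cKO replicate 1 and 7 lowest in control replicate 3. The part of neutrophil RNA in this reference was not tested. Set against it in the same library, the stage differences were 0.096 (SD 0.25 in Atrx-cKO and 0.071 in control), 0.12 (SD 0.17 and 0.063) and 0.049 (SD 0.13 and 0.10). Without Atrx-cKO replicate 1 these became -0.038, 0.025 and -0.020, in a comparison added after seeing the data. They were 0.21, 0.19 and 0.11 without Atrx-cKO replicate 3. With control replicate 3 left out they were 0.14, 0.11 and -0.0041. No test was made of these summed levels.

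**Figure D4:**
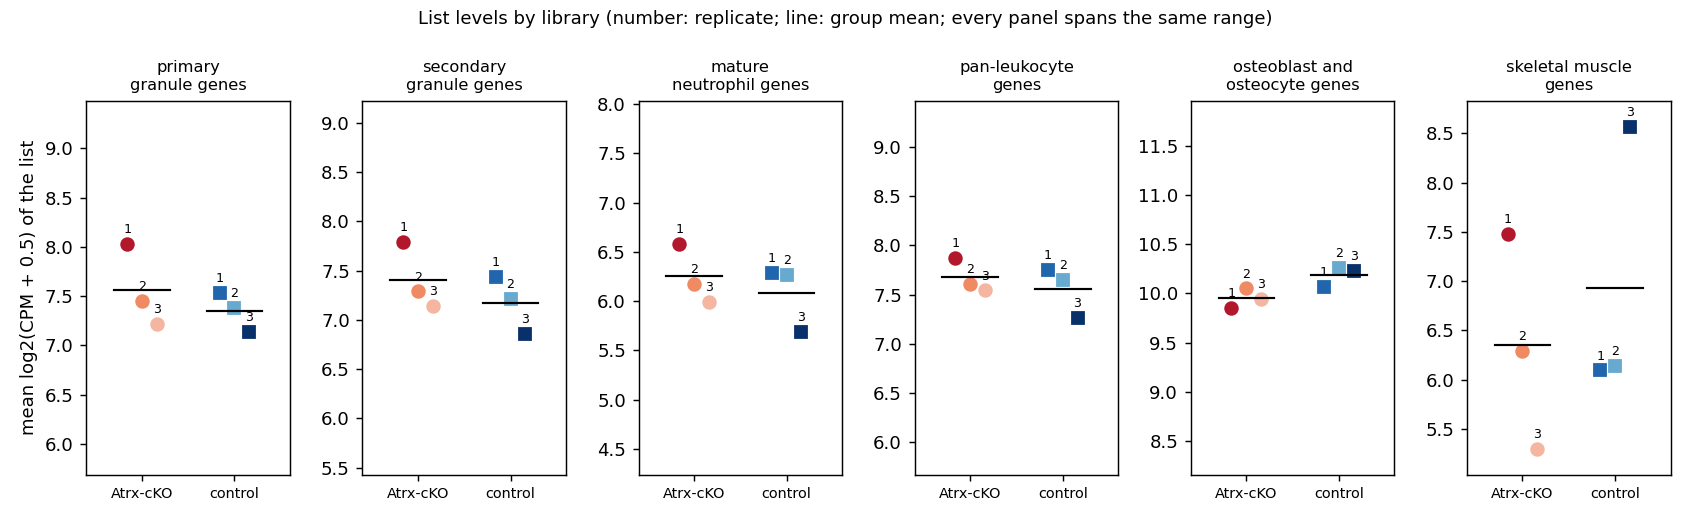
Each panel gives the mean log2(CPM + 0.5) of a gene list in each library, numbered by replicate, with the group mean as a line, and every panel spans the same range. The 3 neutrophil stages share an order in which Atrx-cKO replicate 1 is highest and control replicate 3 lowest, while muscle genes are highest in control replicate 3.

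Levels differed far more between genes than between genotypes. In TPM, *S100a9* ranked 8th of all genes in control tibias, *S100a8* 12th at 6524 ± 1729 TPM (SD, n = 3), *Ngp* 14th, *Lyz2* 20th at 4299 ± 864 TPM (SD, n = 3) and *Camp* 24th at 3244 ± 623 TPM (SD, n = 3). *S100a8* and *Ngp*, neighbors in that order, did not differ beyond their spread. The least abundant were *Clec4d* at 24.2 TPM, *Trem1* at 13.4 TPM and *Il1r2* at 10.8 TPM. Against the 10836 genes with a mean of at least 10 CPM, a set not matched to the members on abundance, 21 of 33 had a within-group SD above the 90th percentile, and all 33 were above the median.

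The rest of the pathway was read from lists of 54 other genes, of which 51 were tested. By edgeR 0 of 51 passed the adjusted threshold, and at an unadjusted p under 0.05, 4 were higher and 1 lower, beside 1.59% and 2.05% of all genes. The 4 belong to the protease list: *Serpina3g*, *Serpinb1a* (inhibitors of serine and cysteine proteases), *Stfa1* and *Stfa3* (stefins, which inhibit cysteine cathepsins). Of the 9 tested genes of that list, 8 had a log2 fold change above 0 (median 0.39). In 3 the Atrx-cKO libraries lay wholly above the controls, beside 4.30% of all genes. *Serpina3g* was at 13.4, 13.4 and 9.93 CPM in Atrx-cKO and 8.58, 8.57 and 4.74 CPM in control, a log2 fold change of 0.74 (SE 0.25, unadjusted p = 0.0174, adjusted p = 0.992, edgeR). *Stfa1* and *Stfa3* were at about 1 CPM or less and are close copies whose reads may be split. The 1 lower gene was *Il1b* (interleukin 1β), at 8.19, 11.2 and 10.6 CPM in Atrx-cKO and 24.3, 24.4 and 9.76 CPM in control, where control replicate 3 again stood with the lower values. *Klf4*, which favors monocytes, came sixth by p, with a log2 fold change of -0.40 (SE 0.18).

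The 10 transcription factors listed for granulopoiesis include *Klf4* and are not limited to the granulocyte fate. Of these 10, 0 passed and the median log2 fold change was 0.051. *Cebpa*, which opens granulocyte fate, had a log2 fold change of -0.11 (SE 0.12) and *Spi1*, the gene of PU.1, 0.072 (SE 0.15). *Ctsc*, whose product activates elastase, proteinase 3 and cathepsin G, had 0.23 (SE 0.23). *Csf3*, the gene of G-CSF, had 0 counts in 5 libraries and 7 counts (0.120 CPM) in Atrx-cKO replicate 1, and was not tested. *Cxcl12*, the stromal chemokine that retains neutrophils in the marrow, was at 3472, 3423 and 3664 CPM in Atrx-cKO and 3498, 3077 and 2758 CPM in control, a log2 fold change of 0.18 (SE 0.12). Of the 8 genes listed as gelatinase granule genes, of which *Lcn2*, *Mmp8* and *Hp* are also known from secondary granules, 7 were highest in Atrx-cKO replicate 1 and 6 lowest in control replicate 3, and the median log2 fold change was 0.35. The 6 NADPH oxidase genes, which make the respiratory burst, had a median of 0.12, the 10 tested genes of adhesion, retention and release other than the member *Csf3r* 0.14, and the 8 genes of lipid mediators and Fc receptors 0.18, with 0 past the adjusted threshold in each. *Mmp9* (gelatinase B), which osteoclasts also make in quantity, was the gelatinase gene that differed, with its highest value in control replicate 1 and a log2 fold change of -0.21 (SE 0.20).

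For other blood lineages in the same tibias the extreme libraries were counted in the same way. Atrx-cKO replicate 1 was the highest library for 0 of 8 erythroid, 0 of 8 B cell, 0 of 6 megakaryocyte and 0 of 7 basophil and mast cell genes, for 1 of 8 T and NK cell genes, 3 of 11 monocyte and macrophage genes, 3 of 8 eosinophil genes and 6 of 8 pan-leukocyte genes. Control replicate 3 was the lowest for 8 of 11 monocyte and macrophage, 7 of 8 eosinophil, 7 of 8 pan-leukocyte, 4 of 8 T and NK cell and 3 of 6 megakaryocyte genes, and for 0 of 8 erythroid, 0 of 8 B cell and 0 of 7 basophil and mast cell genes. Log2 fold changes were above 0 for all 5 tested megakaryocyte genes (median 0.33), 8 of 8 eosinophil genes (0.19) and 7 of 8 B cell genes (0.17). The same held for 6 of 8 T and NK cell (0.15), 7 of 8 erythroid (0.028) and 7 of 8 pan-leukocyte genes (0.12). Of stem and progenitor genes 5 of 7 were above 0 (0.027), and of basophil and mast cell genes 1 of 7 (-0.020). By edgeR 0 genes of these lists passed the adjusted threshold. Their most abundant genes had log2 fold changes of 0.012 for *Slc4a1* (red cells), 0.18 for *Ebf1* (B cells), 0.37 for *Ppbp* (megakaryocytes), -0.11 for *Prss34* (basophils), 0.083 for *Prg2* (eosinophils), 0.26 for *Nkg7* (T and NK cells) and 0.027 for *Cd34* (progenitors).

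Of the 3 most abundant monocyte and macrophage genes, *Csf1r* was at 250, 235 and 267 CPM in Atrx-cKO and 299, 295 and 289 CPM in control, a log2 fold change of -0.23 (SE 0.084, unadjusted p = 0.0256, adjusted p = 0.992, edgeR). *Ly6c2* had 0.13 (SE 0.12) and *Mrc1* 0.096 (SE 0.12). Of the 11 genes of the list, 9 had a log2 fold change above 0 (median 0.13). At an unadjusted p under 0.05 the 1 lower gene was *Csf1r*. The 1 higher gene was *C1qa*, a complement subunit named after its values were seen (log2 fold change 0.26, unadjusted p = 0.0341, adjusted p = 0.992, edgeR). The defining genes of bone were abundant, as the label tibia implies. *Col1a1* was at 58131, 57804 and 57530 CPM in Atrx-cKO and 53518, 92464 and 82583 CPM in control, and *Col1a1* and *Col1a2* together took 11.1%, 11.3% and 11.6% of counts in Atrx-cKO and 10.9%, 16.7% and 14.8% in control. The controls with the larger collagen share, replicates 2 and 3, were those with the smaller neutrophil share, and the part of collagen RNA in the neutrophil values was not tested. *Bglap* had a log2 fold change of -0.21 (SE 0.20), *Acp5* of osteoclasts -0.41 (SE 0.22), *Fabp4* of adipocytes 0.23 (SE 0.21) and *Col2a1* of cartilage -0.56 (SE 0.20). The last 2 differ in sign from their lists, since 4 of 6 adipocyte genes were below 0 (median -0.28) and the cartilage list was split 3 and 3 (median 0.12). *Bglap* and *Acp5* had the sign of theirs, since 10 of 11 osteoblast and osteocyte genes were below 0 (median -0.26). All 8 osteoclast genes were below 0 (median -0.40). At an unadjusted p under 0.05 by edgeR, 1 osteoblast and osteocyte gene and 2 osteoclast genes were lower, beside 2.05% of all genes. In each list 0 were higher (beside 1.59%). In muscle, *Myh4* was at 4628 CPM in control replicate 3 and at 91.5 to 670 CPM elsewhere, *Acta1* at 2001 CPM against 113 to 442 CPM, and *Ckm* at 1490 CPM against 75.3 to 287 CPM. The 10 genes did not share this pattern throughout: *Myh1*, *Myh2* and *Mb*, named after their values were seen, were highest in Atrx-cKO replicate 1 (181, 69.5 and 76.6 CPM) and lower in control replicate 3 (52.3, 10.7 and 30.2 CPM) than in the other controls.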

How the data were processed

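Total RNA from snap-frozen tibias was made into polyA-selected, strand-specific libraries and sequenced as 150-bp paired-end reads by GENEWIZ. The authors deposited raw counts per Ensembl gene, 1 table per library, with summary entries in the htseq-count form, of which reads on no feature made up 51.6% to 52.4%. These were kept out of library sizes. The submitters' processing notes name GRCm38 and DESeq2, and the aligner, counter and strand setting were not given in the sources used here. *Mpo*, *Prtn3* and *Gfi1* overlap exons of a gene on the other strand, so their reads may include those of the partner.

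Genes were named by GENCODE M21 on GRCm38 (55141 of 55401 identifiers matched). Counts were fitted on the whole table with edgeR 4.0.16 (TMM, filterByExpr, quasi-likelihood test, genotype alone) in R 4.3.3, and p-values were adjusted over all 20636 genes tested. DESeq2 1.42.0 was an alternative. Standard errors and 95% intervals come from the quasi-likelihood F. CPM were scaled by TMM factors, TPM used union exon length, and stage levels added 0.5 CPM. The script was tested on simulated data. Promoters are RefSeq's.

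The members, stages and gene lists were chosen with earlier results of these data known, so no list was tested as a whole. Named were all members, *Atrx*, the 6 pathway genes with the lowest p and 6 set in advance (*Ctsc*, *Cebpa*, *Spi1*, *Csf3*, *Cxcl12*, *Mmp9*), and the most abundant gene, or the 3 most abundant for muscle, bone and monocyte lists, of each other cell list. Counts by unadjusted p and the alternatives (scaling, filter, test, replicate block, core lists, left-out libraries) are given at the end.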

Additional observations from a re-analysis of the deposited data

How the results depend on the processing

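No setting called a member: the count was 0 of 33 under other size factors, upper quartile scaling, library totals, TMM factors without muscle, erythroid and member genes, other filters on low counts, DESeq2, the replicate block and every left-out library. The lowest adjusted p of a member was 0.269 (*Slpi*) without control replicate 1 and at least 0.848 in every other fit. No source says that equal replicate numbers mark pairs, and the correlations of deviations were -0.0031, 0.11 and -0.10 for numbers 1, 2 and 3. The members' share of counts fell from replicate 1 to 3 in both genotypes (1.83%, 1.44% and 1.36% in Atrx-cKO, 1.63%, 1.29% and 1.02% in control). The level of each stage had the same order. Whether equal numbers share a litter or day was not tested. With the replicate block 4 members were higher at an unadjusted p under 0.05 by edgeR (*Olfm4*, *Pglyrp1*, *Trem3* and *S100a8*, beside 2.02% of all genes). So were 4 with no filter (*Ms4a3*, *Olfm4*, *Ifitm6* and *Fpr2*, beside 1.42%), where the main count was 0. The cause was not tested. Leaving out libraries moved that count from 0 to 5 (without Atrx-cKO replicate 3: *Ctsg*, *Ms4a3*, *Olfm4*, *Il1r2* and *Fpr2*, beside 1.38% of all genes) and the count of members lower from 0 to 4 (without Atrx-cKO replicate 1 and control replicate 3: *Ifitm6*, *Cxcr2*, *Csf3r* and *Fpr1*, beside 1.65%). The number of log2 fold changes above 0 ran from 7 to 30, the medians from -0.16 to 0.43 (primary), -0.063 to 0.34 (secondary) and -0.20 to 0.26 (mature), the stage level differences from -0.12 to 0.39, -0.11 to 0.37 and -0.20 to 0.30, and the difference in share of counts from -0.059 to 0.388 percentage points. The lower end of each came without Atrx-cKO replicate 1 and control replicate 3, a pair added after seeing the data. The sign of 24 members' log2 fold changes turned when libraries were left out, over ranges of -0.21 to 0.21 for *Elane*, -0.23 to 0.28 for *Mpo*, -0.28 to 0.58 for *Prtn3*, -0.11 to 0.61 for *Ctsg*, -0.13 to 0.38 for *Ltf*, -0.0066 to 0.34 for *Ngp*, -0.10 to 0.19 for *Chil3*, -0.089 to 0.28 for *Cebpe*, -0.10 to 0.29 for *Itgb2l*, -0.70 to 0.94 for *Cd177*, -0.060 to 0.40 for *Pglyrp1*, -0.23 to 1.16 for *Ifitm6*, -0.027 to 0.41 for *Trem3*, -0.080 to 0.47 for *S100a8*, -0.11 to 0.38 for *S100a9*, -0.11 to 0.27 for *Retnlg*, -0.50 to 0.26 for *Cxcr2*, -0.21 to 0.17 for *Padi4*, -0.32 to 0.29 for *Trem1*, -0.26 to 0.042 for *Clec4d*, -0.18 to 0.87 for *Il1r2*, -0.32 to 0.35 for *Fpr1*, -0.28 to 0.010 for *Lyz2* and -0.086 to 0.52 for *Anxa1*. With library totals only, the median of all genes moved to 0.077 and *Clec4d* to 0.0028, and the members' median to 0.25. The other scalings, filters and DESeq2 left 29 of 33 members above 0. The core lists, of 5 genes per stage, had medians of 0.34 (primary), 0.12 (secondary) and 0.17 (mature). The full lists had 0.26, 0.20 and 0.17, so the order of the secondary and mature medians turned.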
